A study of Mus musculus with 24 samples.

Results

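This account compares the cells labelled CCR6 with the cells labelled DN in control mice of a bulk RNA-seq series on lymphocytes that were sorted by flow cytometry from mouse small intestine, from its lamina propria. It rests on 6 of the 24 libraries of the series, 3 from WT CCR6 cells and 3 from WT DN cells, taken by their labels. All 55487 genes of the count table entered with 1 row each, and 21286 of them passed the filter on low counts and were tested. The mice were 8 to 12 weeks old. The animals labelled WT were littermates that carried floxed Nr1d1 and Nr1d2, the genes of the clock repressors REV-ERBα and REV-ERBβ. The animals labelled DKO carried the same floxed genes and Cre recombinase under Vav1 control, which acts in blood cells, and their 3 CCR6 and 3 DN libraries are used here only to set a 2nd genotype beside the WT result. All the groups therefore share the floxed alleles. The meaning of the label DN is not given in the sources used here, and the other sorted populations of the series are labelled NKp46 and ILC1.

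ILC3 are tissue lymphocytes that make interleukins 17 and 22. The subset with the chemokine receptor CCR6 resembles lymphoid tissue inducer (LTi) cells, which use lymphotoxin to start lymphoid follicles in the gut wall, often carry CD4 and can present antigen on MHC class II. T cells, in contrast, recognise antigen through a receptor of rearranged chains held in the CD3 complex, and the intestine holds many cytotoxic and γδ T cells.

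The WT CCR6 libraries held 51554636, 84395154 and 72943449 counts and the WT DN libraries 46661738, 40938914 and 37953497 counts, so each CCR6 library was deeper than each DN library. Levels are given as CPM, the counts of a gene per 1000000 counts of its library, with library sizes scaled by the trimmed mean of M values. A log2 difference is CCR6 minus DN. The p-values are from edgeR's quasi-likelihood test across all 24 libraries, adjusted over the 21286 genes, with a gene called under 0.05. The value after the ± of a log2 difference is an approximate standard error. It is the size of the difference divided by the square root of that test's F statistic, so it adds nothing independent of the unadjusted p-value. Means are given ± SD with n = 3 libraries. Whether a group's 3 libraries stem from different animals is not said in the labels. The p-values measure the spread between libraries within groups, estimated for each gene over all 8 groups and not from the 6 libraries alone. A gene with little scatter among these 6 can therefore still have a wide error. The protein-coding share of counts was 94.4 to 94.9% in the CCR6 libraries and 92.2 to 94.5% in the DN libraries, and ribosomal RNA took 2.02 to 2.08% and 1.61 to 3.69%. Between libraries of 1 WT group the rank correlation over genes ran from 0.95 to 0.968, and the first principal component of the 6 libraries, with 38.6% of the variance, placed all CCR6 libraries on one side and all DN libraries on the other. One library of another population, WT ILC1 replicate 2, stood apart with 12763228 counts and 11.1% ribosomal RNA. It enters the fit through the filter on low counts, the scaling of library sizes and the shared estimate of spread. Without it 22740 genes were tested.

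The CCR6 and DN cells differed in 1243 genes, 5.84% of those tested. Of these, 415 (1.95%) were higher in CCR6 cells and 828 (3.89%) were higher in DN cells. The split was closer to even in other fits, with 1030 higher in CCR6 cells and 1182 in DN cells with only the groups compared in the fit, and 1066 and 1357 with limma voom. A fitted difference of 4-fold or more was reached by 110 of the genes higher in CCR6 cells and by 277 of those higher in DN cells. The median log2 difference over all genes tested was 0.02. The count was 1803 without WT ILC1 replicate 2 in the fit. Fewer genes were called without WT CCR6 replicate 2 (736), WT CCR6 replicate 3 (737), WT DN replicate 1 (765) or WT DN replicate 2 (813). The 3 libraries of one group lay wholly above or below the 3 of the other for 28.9% of the genes tested.

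The genes behind the sort went with the label of the CCR6 cells, and DN cells were low in both named surface markers. Ccr6, at chr17:8236043-8257141 on the GRCm38 build, read 1305, 1476 and 1417 CPM in the CCR6 libraries and 39.8, 41.8 and 40.6 CPM in the DN libraries. The groups were far apart, and the log2 difference was 5.10 ± 0.75, adjusted p = 1.4e-04. In bulk RNA a lower level can mean fewer cells with the transcript or less of it per cell, and the 2 cannot be told apart here. Ncr1, which encodes NKp46, read 12.1, 11.5 and 5.95 CPM in the CCR6 libraries and 57.1, 46.4 and 63.1 CPM in the DN libraries, with a log2 difference of -2.49 ± 0.30, adjusted p = 5.7e-06. Its level in the NKp46 cells of the same genotype was 824 ± 103 CPM, so both groups lay far below that population. Of the 17 sorting markers and ILC3 regulators, 7 were higher in CCR6 cells and 4 in DN cells, or 4 and 4 without WT CCR6 replicate 2 or 3 or WT DN replicate 1 or 2. Kit, the stem cell factor receptor, and Il23r and Il1r1, which receive the cytokines that drive ILC3, were among those higher in CCR6 cells, at 985 ± 133 against 371 ± 63.1 CPM (1.41 ± 0.19, adjusted p = 3.9e-05), 318 ± 11.1 against 187 ± 28.5 CPM (0.77 ± 0.19, adjusted p = 0.016) and 300.5 ± 33 against 136 ± 6.53 CPM (1.14 ± 0.31, adjusted p = 0.029). Id2, the ILC regulator, gave 4388 ± 212 against 4168 ± 494 CPM and Rora gave 951 ± 33.8 against 874 ± 53.9 CPM, and neither was called (adjusted p = 0.88 and 0.64). Ptprc, which encodes the leukocyte marker CD45, was 524 ± 36.4 against 678 ± 23.3 CPM, Thy1 was 149 ± 22.7 against 194 ± 39.8 CPM and Zbtb16, the gene of PLZF, was 28.6 ± 2.65 against 42.9 ± 1.96 CPM, and none of them was called (adjusted p = 0.22, 0.49 and 0.26). Cd4, Tox, Ahr, Gata3 and Tbx21, which also belong to this list, are described with their own groups. Il7r, the interleukin 7 receptor, read 1103, 1584 and 1519 CPM in the CCR6 libraries and 891, 1112 and 1027 CPM in the DN libraries, overlapped between the groups and was not called (adjusted p = 0.067). The call for Il23r ended without WT CCR6 replicate 2 or 3 or WT DN replicate 1 or 2 (adjusted p up to 0.11) and that for Il1r1 without WT CCR6 replicate 2 or 3 or WT DN replicate 1, 2 or 3 (adjusted p up to 0.12).

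Several genes of LTi-like cells were higher in the CCR6 libraries. Of the 22 tested members of that list, which includes Ccr6 itself, 9 were higher in CCR6 cells and 1 in DN cells, with a median log2 difference of 1.00. Without WT DN replicate 1 or without WT DN replicate 2, 5 were higher and 1 was lower. With limma voom 16 were higher and 1 was lower, and with only the groups compared in the fit 14 and 1. Cd4, a coreceptor also borne by LTi cells, read 504, 425 and 457 CPM in the CCR6 libraries and 83.3, 45.8 and 78.2 CPM in the DN libraries (2.74 ± 0.42, adjusted p = 1.5e-04). Cxcr5, the receptor that guides cells to follicles, read 268, 241 and 265 CPM in the CCR6 libraries and 73.5, 68.7 and 62.3 CPM in the DN libraries (1.92 ± 0.49, adjusted p = 0.02). Neither gene overlapped between the groups. Nrp1, a coreceptor for semaphorins and growth factors found on LTi-like ILC3, gave 366 ± 66.1 against 71.9 ± 6.98 CPM (2.35 ± 0.59, adjusted p = 0.016), and Cd83, a membrane protein of antigen-presenting cells, gave 438 ± 58.1 against 93.1 ± 15.2 CPM (2.23 ± 0.32, adjusted p = 6.1e-05). The lymphotoxin genes rose by less. Lta read 206, 212 and 215 CPM in the CCR6 libraries and 78.6, 77.6 and 104 CPM in the DN libraries (1.28 ± 0.15, adjusted p = 5.3e-06), and Ltb read 1348, 1261 and 1168 CPM in the CCR6 libraries and 778, 803 and 756 CPM in the DN libraries (0.69 ± 0.12, adjusted p = 8.1e-04). Each Lta and Ltb value of the CCR6 cells was above each value of the DN cells. Tnfrsf25, the receptor of the cytokine TL1A, gave 581 ± 50.7 against 365 ± 48 CPM (0.67 ± 0.15, adjusted p = 0.0067). The member higher in DN cells was Itgb7, a chain of the gut-homing integrin, at 639 ± 67.3 against 1092 ± 71.5 CPM (-0.77 ± 0.12, adjusted p = 1.7e-04). Tnfsf11, which encodes RANKL, was 40.9 ± 15.7 against 25.2 ± 1.67 CPM and was not called (adjusted p = 0.26). The call for Cxcr5 ended without any 1 of the 6 libraries (adjusted p up to 0.085), that for Nrp1 without WT CCR6 replicate 2 or 3 or WT DN replicate 1, 2 or 3 (adjusted p up to 0.074) and that for Tnfrsf25 without WT DN replicate 1 or 2 (adjusted p up to 0.078).

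**Figure D1:**
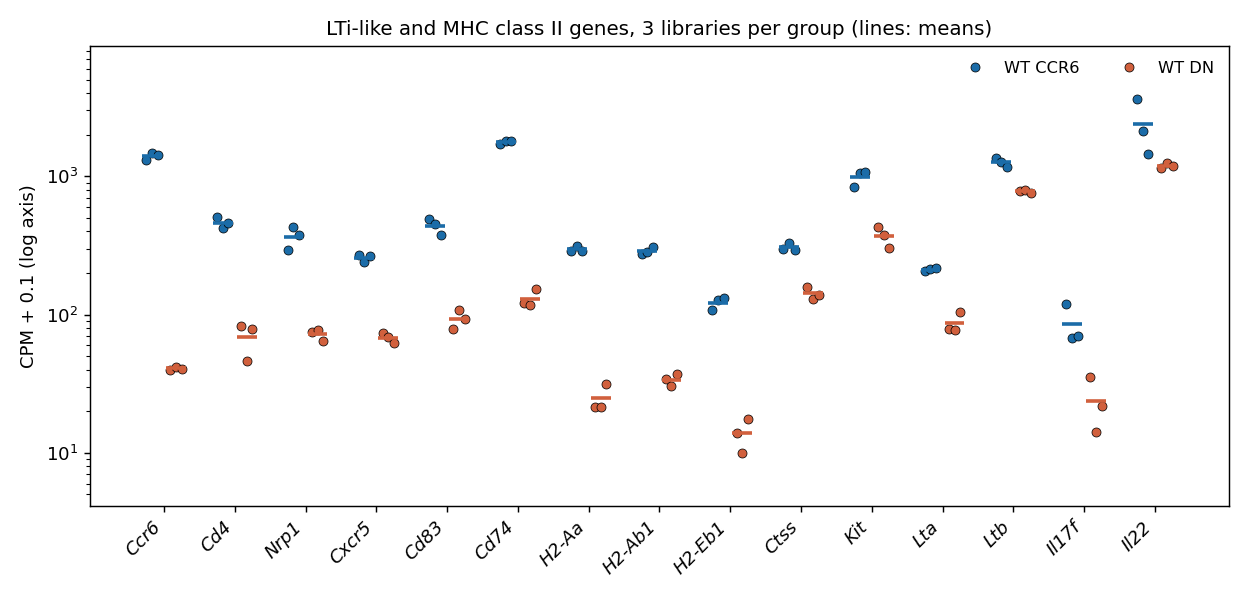
Levels of LTi-like and MHC class II genes in single libraries. The y axis is CPM plus 0.1 on a log scale, points are the 3 WT CCR6 and 3 WT DN libraries and lines are group means. Ccr6 and Cd74 stand more than 10-fold apart between the groups, while the highest DN and lowest CCR6 values of Il22 lie close together.

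The classical MHC class II genes were higher in all 3 CCR6 libraries. Class II molecules carry peptides to CD4 T cells. Cd74, the invariant chain that guards the peptide groove, read 1707, 1813 and 1796 CPM in the CCR6 libraries and 121, 117 and 153 CPM in the DN libraries, a 13.6-fold difference (3.77 ± 0.23, adjusted p = 7.5e-10). The α chain H2-Aa read 286, 314 and 288 CPM in the CCR6 libraries and 21.4, 21.3 and 31.5 CPM in the DN libraries (3.58 ± 0.25, adjusted p = 3.1e-09). Its partner H2-Ab1 read 274, 283 and 309.7 CPM in the CCR6 libraries and 33.9, 30.4 and 37.2 CPM in the DN libraries (3.09 ± 0.25, adjusted p = 3.1e-08), and H2-Eb1 read 107, 127 and 132 CPM in the CCR6 libraries and 13.9, 9.96 and 17.4 CPM in the DN libraries (3.15 ± 0.52, adjusted p = 3.6e-04). The lowest CCR6 library was above the highest DN library for each of these 4 genes. Per kilobase of exon, the level of Cd74 was 1055 and 77.6 CPM per kb in CCR6 and DN cells, that of H2-Aa was 78 and 6.51 CPM per kb and that of H2-Ab1 was 112 and 13.2 CPM per kb, so Cd74 stood above both chains. Ctss, the protease that trims the invariant chain, gave 307 ± 18.6 against 142 ± 15.2 CPM (1.11 ± 0.15, adjusted p = 2.5e-05). Cd40, the receptor through which T cells license antigen-presenting cells, gave 5.89 ± 0.737 against 0.384 ± 0.404 CPM (3.93 ± 1.07, adjusted p = 0.03). The summed level of the 19 listed genes was 2914 to 3088 CPM in CCR6 libraries and 481 to 554 CPM in DN libraries. In all, 6 of the 19 tested members were higher in CCR6 cells, none was lower, and the median log2 difference was 0.94. The call for Cd40 ended without WT CCR6 replicate 1, 2 or 3 or WT DN replicate 1 or 3 (adjusted p up to 0.15).

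The rest of the class II pathway did not follow the same size. H2-DMb1 and H2-DMb2, near-identical peptide-loading chains whose reads may be split between them, were 8.91 ± 2.3 against 3.52 ± 1.5 CPM and 6.28 ± 1.79 against 0.596 ± 0.687 CPM with adjusted p-values of 0.057 and 0.059. H2-DMa, their partner chain, read 45.1, 49.3 and 47.4 CPM in the CCR6 libraries and 41.8, 48.6 and 40.1 CPM in the DN libraries, and the groups overlapped (adjusted p = 0.86). H2-Oa was 47.5 ± 4.75 against 29 ± 2.36 CPM and was not called (adjusted p = 0.32). Ciita, the transactivator on which class II transcription depends, read 15.6, 9.37 and 14.1 CPM in the CCR6 libraries and 8.81, 8.81 and 11.4 CPM in the DN libraries (0.43 ± 0.43, adjusted p = 0.72), with overlapping groups. Rfx5, a subunit of the factor that binds class II promoters, was 10.4 ± 0.684 against 11.4 ± 3.19 CPM (adjusted p = 0.9). The costimulatory ligands Cd80 and Cd86 stood at 0.428 and 0.99 CPM in CCR6 cells and 0.222 and 1.0 CPM in DN cells.

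Class II promoters are known to share an X box and a Y box close to the start site, and 4 promoters are shown so that genes that were called (H2-Aa and H2-Eb1) can be read beside genes that were not (H2-DMb1 and H2-Oa). Each is a RefSeq window of 300 bases on GRCm38.p6, from 250 before the start of the gene to 50 after it, on the coding strand. Capitals mark the Y box core TGATTGG, an inverted CCAAT box, searched on both strands.
H2-Aa, chr17:34287774-34288073, minus strand: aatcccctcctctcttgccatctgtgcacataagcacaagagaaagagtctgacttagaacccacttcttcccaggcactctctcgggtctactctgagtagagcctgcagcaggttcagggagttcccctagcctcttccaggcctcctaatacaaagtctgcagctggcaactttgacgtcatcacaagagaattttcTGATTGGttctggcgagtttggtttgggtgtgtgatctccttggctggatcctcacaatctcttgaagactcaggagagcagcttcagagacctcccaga
H2-Eb1, chr17:34305617-34305916, plus strand: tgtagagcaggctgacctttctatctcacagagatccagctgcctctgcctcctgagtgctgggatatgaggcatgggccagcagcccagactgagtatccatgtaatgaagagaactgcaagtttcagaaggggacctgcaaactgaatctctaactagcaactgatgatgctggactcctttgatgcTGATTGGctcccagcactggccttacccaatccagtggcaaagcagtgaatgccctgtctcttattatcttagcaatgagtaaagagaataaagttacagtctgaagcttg
H2-DMb1, chr17:34152941-34153240, plus strand: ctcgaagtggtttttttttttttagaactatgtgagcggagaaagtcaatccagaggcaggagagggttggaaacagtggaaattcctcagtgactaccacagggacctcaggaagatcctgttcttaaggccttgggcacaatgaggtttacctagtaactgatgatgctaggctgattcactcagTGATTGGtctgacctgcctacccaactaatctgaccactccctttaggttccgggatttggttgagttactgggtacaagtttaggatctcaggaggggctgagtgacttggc
H2-Oa, chr17:34092129-34092428, plus strand: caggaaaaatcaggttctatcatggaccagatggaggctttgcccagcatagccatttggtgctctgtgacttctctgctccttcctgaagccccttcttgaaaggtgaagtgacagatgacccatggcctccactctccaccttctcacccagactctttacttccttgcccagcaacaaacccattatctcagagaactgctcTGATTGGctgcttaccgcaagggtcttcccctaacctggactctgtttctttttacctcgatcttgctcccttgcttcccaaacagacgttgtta
The 7 letters were found in 7.82% of the 32851 promoter windows of all genes. Among 10 class II chain, chaperone and invariant chain genes, 8 had a window, and 7 of those held them. Of the whole list of 19 pathway genes, 13 had a window and 8 of those held them. In the 4 shown, the motif's first base lay at -49, -60, -62 and -44 from base 250 of the window, in the order printed. Base 250 is the last base before the start of the gene. The motif was thus present in promoters of genes that rose in CCR6 cells and of genes that were not called, and it was not found in the windows of Ctss, which rose, or of H2-DMa, which was not called.

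The cytokines of ILC3 split between the groups. Il17f read 119, 67.4 and 70.0 CPM in the CCR6 libraries and 35.2, 14.1 and 21.8 CPM in the DN libraries (1.85 ± 0.53, adjusted p = 0.041). Il17a was 31 ± 13.4 against 10.0 ± 2.99 CPM, with groups that did not overlap, but it was not called (adjusted p = 0.16). Il22 read 3628, 2132 and 1460.0 CPM in the CCR6 libraries and 1143, 1251 and 1183 CPM in the DN libraries, a wide spread within the CCR6 cells, and was not called (1.01 ± 0.41, adjusted p = 0.18). Csf2, which encodes GM-CSF, went the other way, at 47.3, 26.8 and 22.2 CPM in the CCR6 libraries and 194, 198 and 158 CPM in the DN libraries (-2.51 ± 0.30, adjusted p = 5.7e-06). Higher in DN cells too were Il2 (2.59 ± 0.371 against 9.52 ± 0.577 CPM, -1.88 ± 0.27, adjusted p = 8.2e-05) and Ifng, the type 1 cytokine (1.56 ± 1.88 against 44.1 ± 1.26 CPM, -4.88 ± 0.55, adjusted p = 3.1e-06). Il10 and Areg were higher in DN cells at low levels (0.0641 ± 0.0715 against 2.67 ± 1.15 CPM and 0.847 ± 0.963 against 8.74 ± 8.22 CPM), and Il21 had 1 count in the CCR6 libraries and 2.13 ± 1.06 CPM in DN cells. In all, 1 of the 12 tested cytokines was higher in CCR6 cells and 6 in DN cells, with a median of -2.19. The counts were 0 and 4 without WT CCR6 replicate 2 or 3 or WT DN replicate 1 or 2. The call for Il17f ended without any 1 of the 6 libraries (adjusted p up to 0.2), that for Il10 without any 1 of the 6 libraries (adjusted p up to 0.16) and that for Areg without WT CCR6 replicate 2 or 3 or WT DN replicate 1 or 2 (adjusted p up to 0.3). Among 32 cytokine receptors, 3 were higher in CCR6 cells and 7 in DN cells, or 0 and 6 without WT DN replicate 2. Il10ra, Il12rb1 and Ifngr1, receptor chains for interleukin 10, interleukin 12 and interferon γ, were 0.208 ± 0.248 against 8.42 ± 1.54 CPM, 173 ± 7.85 against 320.1 ± 42.7 CPM and 828 ± 24.3 against 1305 ± 166 CPM (adjusted p = 3.7e-04, 0.0054 and 0.0062). The call for Ifngr1 ended without WT DN replicate 3 (adjusted p up to 0.07). Il12rb2, the other chain of the interleukin 12 receptor, read 0, 0.141 and 0.269 CPM in the CCR6 libraries and 33.4, 14.4 and 17.3 CPM in the DN libraries (-7.18 ± 0.69, adjusted p = 3.3e-07), and Il21r read 2.39, 0.0706 and 0.102 CPM in the CCR6 libraries and 41.5, 45.3 and 37.8 CPM in the DN libraries (-5.67 ± 0.92, adjusted p = 2.9e-04). WT CCR6 replicate 1 held most of the Il21r signal of its group, and the difference was -8.86 without it (adjusted p = 8.3e-07).

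Transcripts of the T cell receptor complex were higher in DN cells. Of 30 tested genes of that complex and its proximal signalling, 21 were higher in DN cells and 1 in CCR6 cells, with a median log2 difference of -1.86 and a summed level of 3196 to 3287 CPM in CCR6 libraries and 5748 to 5978 CPM in DN libraries. The CD3 chain Cd3e read 97.1, 72.2 and 79.4 CPM in the CCR6 libraries and 591, 558 and 574 CPM in the DN libraries (-2.79 ± 0.33, adjusted p = 5.6e-06). Cd3g read 83.1, 65.6 and 77.4 CPM in the CCR6 libraries and 541, 496 and 553 CPM in the DN libraries (-2.82 ± 0.28, adjusted p = 4.8e-07), and Cd3d gave 22.1 ± 8.81 against 178 ± 10.1 CPM (-3.01 ± 0.40, adjusted p = 2.7e-05). The CCR6 libraries were well below the DN libraries for all 3 CD3 chains but not near 0. Cd247, the ζ chain, gave 25.2 ± 5.09 against 116 ± 8.98 CPM (-2.20 ± 0.40, adjusted p = 0.0011). The kinase Lck gave 143 ± 21.2 against 569 ± 28.5 CPM (-1.99 ± 0.19, adjusted p = 2.8e-07), and the adaptor Skap1 gave 159 ± 6.13 against 411 ± 27.7 CPM (-1.37 ± 0.11, adjusted p = 2.9e-08). Cd6 and Cd2, adhesion receptors of T cells, were far lower in CCR6 cells, at 0.28 ± 0.298 against 42.7 ± 11.9 CPM and 0.75 ± 0.415 against 38.1 ± 3.18 CPM (-7.24 ± 1.22, adjusted p = 4.7e-04 and -5.65 ± 0.46, adjusted p = 2.9e-08). Cd28, the costimulatory receptor, read 18.8, 2.46 and 2.03 CPM in the CCR6 libraries and 150.1, 111 and 92.3 CPM in the DN libraries (-3.94 ± 0.72, adjusted p = 0.0011). The highest CCR6 value was that of replicate 1. Cd5, another T cell surface receptor, was low in both groups, at 0.133, 0.965 and 0.755 CPM and 2.25, 2.53 and 0.232 CPM, and was not called (adjusted p = 0.71). Zap70, a kinase of T cell receptor signalling, overlapped between the groups and was not called (adjusted p = 0.55). The member higher in CCR6 cells was Tcf7, a transcription factor of T cells and ILC progenitors, at 601 ± 46.2 against 337 ± 21.9 CPM (0.84 ± 0.12, adjusted p = 4.3e-05).

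Antigen receptor genes moved the same way. All 7 constant genes of the list were higher in DN cells. Trac, the constant part of the α chain, read 19.7, 16.7 and 15.6 CPM in the CCR6 libraries and 237, 216 and 222 CPM in the DN libraries (-3.70 ± 0.33, adjusted p = 1.0e-07). Trdc, the δ constant gene, read 29.8, 37.7 and 40.2 CPM in the CCR6 libraries and 241, 257 and 325 CPM in the DN libraries (-2.93 ± 0.26, adjusted p = 1.1e-07). The neighbouring copies Trbc1 and Trbc2 gave 156 ± 14.3 against 408 ± 16 CPM and 421 ± 54.7 against 807 ± 22.7 CPM, and how reads shared by such copies were counted is not given in the sources used here. Trgc1 gave 449 ± 24.2 against 923 ± 71.1 CPM and Trgc4 gave 133 ± 5.15 against 418 ± 22.8 CPM. Per kilobase of exon, Trac stood at 18.6 and 241 CPM per kb in CCR6 and DN cells, Trbc2 at 608 and 1166 CPM per kb and Trgc1 at 486 and 999 CPM per kb. The constant genes of the β and γ chains were thus above Trac per length in the CCR6 cells. Over all 122 tested T cell receptor segments and constant genes, 25 were higher in DN cells and 0 in CCR6 cells. All variable segments summed to 75.9, 57.8 and 64.2 CPM in the CCR6 libraries and to 347, 334 and 399 CPM in the DN libraries, so the groups were far apart. Of the 77 tested variable segments, 11 were higher in DN cells, 13 had no count in any CCR6 library and 0 had no count in the DN libraries. A segment was tested only if some libraries of the series held enough counts of it. A segment absent from CCR6 cells thus passed through other groups, DN cells among them, and the last 2 counts depend on this filter. Trdv4, a δ segment, read 2.72, 4.38 and 2.57 CPM in the CCR6 libraries and 60.5, 63.8 and 86.3 CPM in the DN libraries (-4.44 ± 0.38, adjusted p = 7.1e-08). Among 12 γδ T cell genes, 3 were higher in DN cells, and the third beside Trdc and Trdv4 was Cd163l1, a scavenger receptor of γδ T cells, at 58.5 ± 20.4 against 268 ± 86.9 CPM (-2.20 ± 0.45, adjusted p = 0.0036). Blk and Maf, of the interleukin 17 γδ T cell type, were not called (adjusted p = 0.9 and 0.23), and Sox13 was 8.1 ± 1.77 against 23.7 ± 3.58 CPM (adjusted p = 0.4). With only the groups compared in the fit, 5 γδ T cell genes were higher in DN cells and 1 in CCR6 cells. With limma voom these were 4 and 2.

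**Figure D2:**
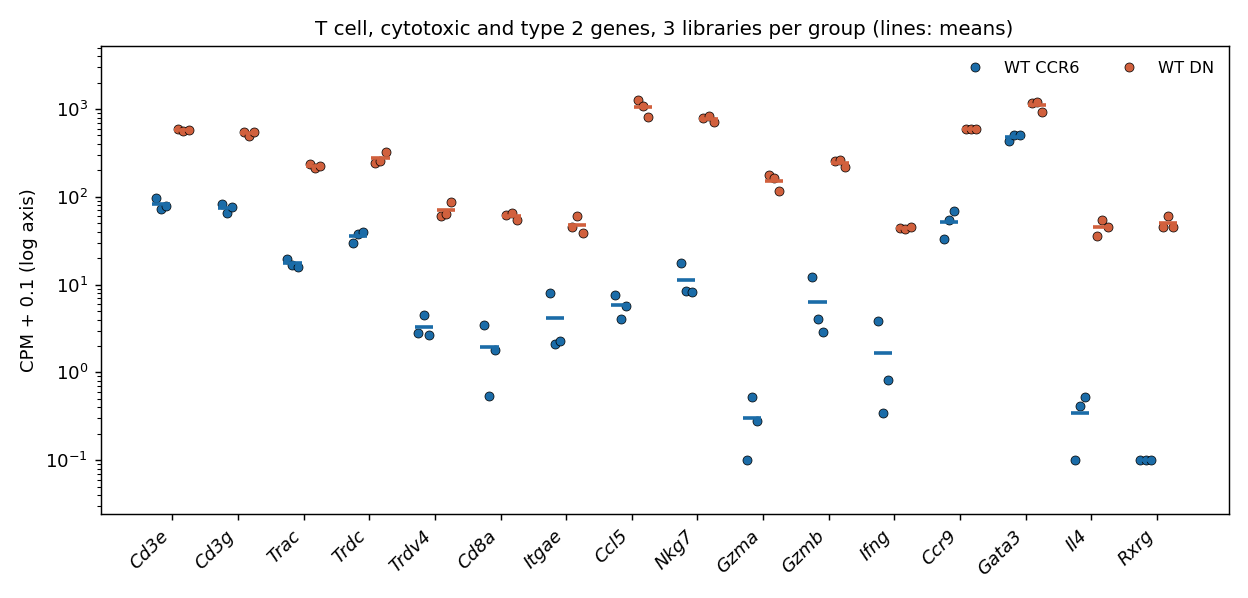
Levels of T cell, cytotoxic and type 2 genes in single libraries. The y axis is CPM plus 0.1 on a log scale, points are the 3 WT CCR6 and 3 WT DN libraries and lines are group means. Each DN library lies above each CCR6 library for every gene drawn, and the 3 CCR6 libraries of Rxrg sit at 0 CPM.

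Cytotoxic genes were far higher in DN cells. Of 17 genes of CD8 and intraepithelial lymphocytes, 16 were higher in DN cells, with a median of -5.06 and a summed level of 387 to 442 CPM in CCR6 libraries and 2263 to 2876 CPM in DN libraries. Of 45 type 1 and cytotoxic genes, 28 were higher in DN cells and 1 in CCR6 cells, with a median of -3.74, or -3.46 with genes that had no count in a group held at their bound. These 2 lists share members. Ccl5, a chemokine of effector T and NK cells, read 7.5, 3.97 and 5.67 CPM in the CCR6 libraries and 1268, 1069 and 802 CPM in the DN libraries (-7.52 ± 0.39, adjusted p = 5.9e-11). Nkg7, a granule protein, read 17.3, 8.36 and 8.06 CPM in the CCR6 libraries and 782, 840.3 and 711 CPM in the DN libraries (-6.12 ± 0.32, adjusted p = 6.0e-11). Ctsw, the protease cathepsin W and the gene with the smallest p of the comparison, read 29, 19.7 and 17.4 CPM in the CCR6 libraries and 383, 404 and 463 CPM in the DN libraries (-4.24 ± 0.19, adjusted p = 3.4e-12). In each case the lowest DN library was over 10 times the highest CCR6 library. The granzymes Gzma, Gzmb and Gzmk gave 0.201 ± 0.213 against 152 ± 33.2 CPM, 6.31 ± 5.1 against 246 ± 23.7 CPM and 0.0656 ± 0.0665 against 21.6 ± 11.3 CPM. Their log2 differences were -9.42 ± 0.66, -5.30 ± 0.62 and -8.41 ± 1.29 (adjusted p = 8.6e-09, 5.1e-06 and 3.6e-04). Klrd1, the CD94 receptor chain, gave 0.265 ± 0.272 against 20.5 ± 5.28 CPM (-6.41 ± 0.64, adjusted p = 5.8e-07). Prf1, the pore-forming perforin, gave 4.14 ± 0.653 against 55.2 ± 1.04 CPM (-3.74 ± 0.27, adjusted p = 5.1e-09), and Fasl, the death ligand, gave 1.31 ± 1.43 against 93.8 ± 9.78 CPM (-6.21 ± 0.70, adjusted p = 3.0e-06). The chemokine Xcl1 gave 0.243 ± 0.281 against 40.1 ± 6.71 CPM (-7.54 ± 0.54, adjusted p = 4.4e-09). Cd8a and Cd8b1, the CD8 coreceptor chains, read 61.6, 66.1 and 53.7 and 67.9, 41.5 and 38 CPM in DN cells and at most 3.36 and 0.907 CPM in CCR6 cells (-5.06 ± 0.83, adjusted p = 3.6e-04 and -6.14 ± 0.72, adjusted p = 4.8e-06). Itgae, which encodes the CD103 integrin chain of intraepithelial lymphocytes, gave 4.08 ± 3.43 against 48 ± 11.1 CPM (-3.57 ± 0.65, adjusted p = 0.001). Klra1 and Klra7, NK receptors of a family of close copies, had no count in the CCR6 libraries. Against a floor of 3 counts over the CCR6 libraries, Klra1 was at least 97.1-fold higher in DN cells and Klra7 at least 213-fold higher. Tyrobp, Il18r1 and Il2rb were not called (adjusted p = 0.37, 0.82 and 0.8), and Fcer1g, an adaptor of activating receptors, was higher in CCR6 cells, at 996 ± 135 against 608 ± 26.6 CPM (0.71 ± 0.13, adjusted p = 9.1e-04). Of 18 genes of NKp46 ILC3, 11 were higher in DN cells and 1, Klrb1b, in CCR6 cells, and Slc6a20a, an amino acid transporter, was 0.573 ± 0.49 against 12.9 ± 6.36 CPM (-4.57 ± 0.50, adjusted p = 1.8e-06).

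Genes of ILC2 and type 2 T cells were likewise higher in DN cells, 16 of 23 tested with none higher in CCR6 cells and a median of -3.38. The summed level was 1516 to 1524 CPM in CCR6 libraries and 2651 to 3217 CPM in DN libraries. Gata3, the regulator of type 2 and T cell fates, read 432, 508 and 503 CPM in the CCR6 libraries and 1163, 1213 and 928 CPM in the DN libraries (-1.20 ± 0.16, adjusted p = 3.0e-05). Il4, the type 2 cytokine, read 0, 0.318 and 0.422 CPM in the CCR6 libraries and 35.9, 55 and 45.5 CPM in the DN libraries (-7.45 ± 0.75, adjusted p = 6.5e-07). Rxrg, a retinoid X receptor, read 44.8, 59.8 and 44.7 CPM in the DN libraries and had no count in the CCR6 libraries, and it was at least 3574-fold higher in DN cells against the floor of 3 counts. Il5 also had no count in CCR6 cells and 5.95 ± 3.34 CPM in DN cells, at least 430.5-fold higher. Il13 had 1 count in the CCR6 libraries and 2.34 ± 1.32 CPM in DN cells. Il17rb, the receptor of interleukin 25, gave 6.4 ± 3.02 against 122 ± 50.0 CPM (-4.26 ± 0.81, adjusted p = 0.0016), and Il9r gave 0.0468 ± 0.0517 against 28.7 ± 4.67 CPM (-9.18 ± 1.47, adjusted p = 3.7e-04). Hs3st1, a heparan sulfate sulfotransferase, gave 1.28 ± 0.927 against 225 ± 82 CPM (-7.48 ± 1.18, adjusted p = 4.0e-04). Rnf128, the ubiquitin ligase GRAIL, gave 4.72 ± 1.35 against 21 ± 3.8 CPM (-2.16 ± 0.39, adjusted p = 9.9e-04). Klrg1, a receptor of ILC2 and effector T cells, gave 12.4 ± 6.25 against 65.5 ± 3.37 CPM (-2.40 ± 0.46, adjusted p = 0.0016), and Il1rl1, the interleukin 33 receptor, gave 0.605 ± 0.358 against 6.1 ± 1.38 CPM (-3.32 ± 0.95, adjusted p = 0.04). The call for Il1rl1 ended without any 1 of the 6 libraries (adjusted p up to 0.19). Each of these genes was higher in every DN library than in any CCR6 library.

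Most homing receptors and all integrin and residency genes that were called were higher in DN cells. Among 24 chemokine and lymph homing receptors, 6 were higher in DN cells and 2 in CCR6 cells, the sort marker Ccr6 and Cxcr5, whose call ended without any 1 of the 6 libraries. Ccr9, the receptor that brings lymphocytes to the small intestine, read 33, 54 and 69.1 CPM in the CCR6 libraries and 600.0, 597 and 596 CPM in the DN libraries (-3.52 ± 0.23, adjusted p = 1.4e-09). Ccr2 read 19.3, 18.5 and 18.2 CPM in the CCR6 libraries and 137, 125 and 149 CPM in the DN libraries (-2.87 ± 0.19, adjusted p = 1.8e-09), and Cxcr3, a receptor of type 1 lymphocytes, read 33.5, 28.1 and 21.9 CPM in the CCR6 libraries and 156, 162 and 189 CPM in the DN libraries (-2.60 ± 0.18, adjusted p = 2.7e-09). For these 3 genes each DN value was more than 3 times each CCR6 value. Ccr8, another chemokine receptor, gave 7.02 ± 2.27 against 65.6 ± 11.4 CPM (-3.22 ± 0.68, adjusted p = 0.004). Gpr55, a lipid receptor, gave 0.262 ± 0.172 against 12.6 ± 3.28 CPM (-5.59 ± 0.95, adjusted p = 4.8e-04). Of 20 integrin and residency genes, 8 were higher in DN cells and none in CCR6 cells. They included Zfp683, the residency factor HOBIT (0.138 ± 0.085 against 5.47 ± 3.02 CPM, -5.32 ± 0.70, adjusted p = 3.9e-05), Itga1, a collagen receptor chain of resident cells (1.85 ± 0.548 against 31.7 ± 7.94 CPM, -4.10 ± 0.44, adjusted p = 1.4e-06), Itgb2, the β2 chain (173 ± 9.92 against 435 ± 31.6 CPM, -1.33 ± 0.22, adjusted p = 3.3e-04), and Cd44, the hyaluronan receptor (345 ± 29.5 against 497 ± 19.4 CPM, -0.53 ± 0.10, adjusted p = 0.0018). Of 13 chemokine ligands, 5 were higher in DN cells, among them Ccl5, Xcl1, Ccl4 (2.34 ± 2.99 against 166 ± 15 CPM, -6.14 ± 0.74, adjusted p = 1.1e-05) and Ccl3 (0.976 ± 0.936 against 15.7 ± 4.7 CPM, -4.08 ± 0.73, adjusted p = 9.8e-04). Ccl1 had no count in CCR6 cells and 3.46 ± 1.24 CPM in DN cells, at least 246-fold higher.

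Among 38 lineage transcription factors, 3 were higher in CCR6 cells and 9 in DN cells, with a median of -0.32. Higher in CCR6 cells were, among others, Tcf7 and Tox, the last by a small margin (256 ± 12.3 against 184 ± 6.94 CPM, 0.48 ± 0.13, adjusted p = 0.022). Tbx21, the gene of T-bet, read 0.95, 1.58 and 1.57 CPM in the CCR6 libraries and 51.1, 25.7 and 14.5 CPM in the DN libraries (-4.46 ± 0.61, adjusted p = 3.5e-05), and the 3 DN libraries differed by several-fold among themselves. Bcl11b, a factor of T cells and ILC2, gave 10.4 ± 1.2 against 86.3 ± 19.2 CPM (-3.05 ± 0.30, adjusted p = 4.1e-07). Ikzf3, which encodes Aiolos, gave 80.3 ± 16 against 219 ± 12 CPM (-1.45 ± 0.17, adjusted p = 5.4e-06). Prdm1, which encodes Blimp-1, gave 5.09 ± 1.0 against 55.4 ± 4.16 CPM (-3.44 ± 0.32, adjusted p = 2.2e-07). Lef1 gave 22.2 ± 3.11 against 72.8 ± 3.66 CPM (-1.72 ± 0.20, adjusted p = 5.2e-06), and Ahr, the receptor of aryl hydrocarbons that ILC3 need, gave 11.9 ± 2.49 against 33.5 ± 2.64 CPM (-1.49 ± 0.27, adjusted p = 8.4e-04). Tcf7 and Lef1, related factors, thus differed in opposite directions. The call for Tox ended without WT CCR6 replicate 2 or 3 or WT DN replicate 1, 2 or 3 (adjusted p up to 0.12). Of 23 checkpoint and costimulatory receptors, 12 were higher in DN cells. The list also holds Tox, a transcription factor and no receptor, which was its only member higher in CCR6 cells. The 12 included Icos (192 ± 16.4 against 403 ± 45.2 CPM, -1.07 ± 0.20, adjusted p = 0.0011), Tigit (1.12 ± 0.561 against 17.4 ± 2.43 CPM, -3.94 ± 0.76, adjusted p = 0.0017) and Vsir, which encodes VISTA (32 ± 0.58 against 105 ± 10.4 CPM, -1.71 ± 0.14, adjusted p = 2.7e-08). The receptors Cd160, Cd226 and Cd244a gave 215 ± 17.9 against 453 ± 34 CPM, 82.6 ± 7.31 against 193 ± 9.91 CPM and 17.6 ± 3.1 against 39.8 ± 6.49 CPM (adjusted p = 5.6e-05, 5.9e-05 and 1.8e-04), and the ectonucleotidase Entpd1 gave 1.03 ± 0.858 against 17.2 ± 6.54 CPM (-4.07 ± 0.66, adjusted p = 2.9e-04). Of 15 genes of regulatory and follicular T cells, 4 were higher in DN cells, among them Ctla4 (25.5 ± 18.3 against 81.3 ± 8.28 CPM, -1.68 ± 0.36, adjusted p = 0.0053) and Tnfrsf18, which encodes GITR (86.3 ± 14.8 against 146 ± 12.3 CPM, -0.76 ± 0.14, adjusted p = 0.001), and 1 in CCR6 cells, Cxcr5. Leaving out any 1 of the 6 libraries left 0 higher in CCR6 cells and 2 or 3 higher in DN cells. The call for Ctla4 ended without WT CCR6 replicate 3 (adjusted p up to 0.051).

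Other signalling genes gave smaller groups. Of 26 genes of the TNF family, 6 were higher in CCR6 cells and 5 in DN cells. Those higher in CCR6 cells included Tnfsf8, the CD30 ligand (14.4 ± 3.12 against 1.96 ± 0.944 CPM, 2.87 ± 0.47, adjusted p = 3.7e-04), and 2 genes of non-canonical NF-kB signalling, Nfkb2 (293 ± 7.94 against 151 ± 19.1 CPM, 0.96 ± 0.17, adjusted p = 0.0011) and its upstream kinase Map3k14 (151 ± 21 against 91 ± 9.6 CPM, 0.73 ± 0.13, adjusted p = 0.0011). Cd40lg, the ligand of CD40, was higher in DN cells (5.42 ± 4.46 against 74.8 ± 8.89 CPM, -3.79 ± 0.59, adjusted p = 1.8e-04), opposite to Cd40. The death ligand Tnfsf10, the ligand Tnfsf14 and the TNF receptor Tnfrsf1a were also higher in DN cells, at 11 ± 2.52 against 33.1 ± 5.91 CPM, 23.6 ± 2.1 against 51.1 ± 5.43 CPM and 30.4 ± 1.85 against 67.8 ± 13.4 CPM (adjusted p = 1.1e-04, 1.8e-04 and 3.7e-04). Of 21 targets and regulators of NF-kB, 4 were higher in each group. Nfkbie and Nfkbid, inhibitors of the pathway, differed in opposite directions, at 139 ± 7.88 against 63.5 ± 3.19 CPM (1.13 ± 0.16, adjusted p = 4.3e-05) and 200.2 ± 27.6 against 418 ± 38.7 CPM (-1.06 ± 0.20, adjusted p = 0.0011). Bcl2, the survival factor, read 509, 509 and 521 CPM in the CCR6 libraries and 249, 254 and 216 CPM in the DN libraries (1.10 ± 0.13, adjusted p = 8.9e-06), while its relative Bcl2a1d, one of several close copies, gave 11.6 ± 2.27 against 39.1 ± 3.37 CPM (-1.76 ± 0.27, adjusted p = 2.0e-04) and the copy Bcl2a1b gave 3.74 ± 0.358 against 15.9 ± 2.51 CPM (-2.09 ± 0.28, adjusted p = 3.5e-05). These 3 were the called members of 20 apoptosis regulators. Among 24 receptors of neuropeptides and metabolites, 3 were higher in CCR6 cells and 2 in DN cells. Vipr2, a receptor of vasoactive intestinal peptide, read 121, 164 and 142 CPM in the CCR6 libraries and 20.2, 20.9 and 15.3 CPM in the DN libraries (2.92 ± 0.69, adjusted p = 0.011), and Ramp1, a subunit of the receptor of calcitonin gene-related peptide, read 261, 207 and 209 CPM in the CCR6 libraries and 65.4, 51.7 and 53.6 CPM in the DN libraries (1.99 ± 0.23, adjusted p = 5.0e-06). Both were higher in every CCR6 library than in any DN library. Adora2a, an adenosine receptor, was higher in DN cells (3.9 ± 1.61 against 78.7 ± 20.9 CPM, -4.34 ± 0.39, adjusted p = 1.1e-07). Ptger2, a prostaglandin E2 receptor, was higher in CCR6 cells (102 ± 28.3 against 51.1 ± 7.73 CPM, 0.99 ± 0.26, adjusted p = 0.025). Without WT DN replicate 1, 1 of these receptors was higher in CCR6 cells and 2 in DN cells. The call for Vipr2 ended without WT DN replicate 1 or 3 (adjusted p up to 0.059) and that for Ptger2 without WT CCR6 replicate 2 or 3 or WT DN replicate 1, 2 or 3 (adjusted p up to 0.17).

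Immediate early genes, which tissue digestion can raise, split by gene. Of 24 tested, 3 were higher in CCR6 cells and 6 in DN cells, and the summed level ran from 31077 to 37602 CPM and from 29575 to 32961 CPM. Fos read 9436, 10757 and 9129 CPM in the CCR6 libraries and 4892, 6125 and 5742 CPM in the DN libraries (0.81 ± 0.12, adjusted p = 1.5e-04), while Junb read 4137, 3369 and 3212 CPM in the CCR6 libraries and 5508, 5094 and 5562 CPM in the DN libraries (-0.59 ± 0.15, adjusted p = 0.015) and Nr4a1 gave 1492 ± 362 against 3157 ± 438 CPM (-1.08 ± 0.28, adjusted p = 0.02). Nr4a2 and Nr4a3, the relatives of Nr4a1, gave 6.34 ± 0.237 against 22.9 ± 7.96 CPM and 8.19 ± 2.19 against 26 ± 6.13 CPM (adjusted p = 2.4e-04 and 0.002), and the heat shock gene Dnajb1, higher in CCR6 cells, gave 286 ± 66.5 against 147 ± 12.2 CPM (0.97 ± 0.16, adjusted p = 3.0e-04). Myc gave 8.63 ± 2.94 against 52.8 ± 3.57 CPM (-2.61 ± 0.26, adjusted p = 4.4e-07). The call for Junb ended without WT CCR6 replicate 2 or 3 or WT DN replicate 1 or 3 (adjusted p up to 0.1) and that for Nr4a1 without WT CCR6 replicate 2 or 3 or WT DN replicate 1 or 2 (adjusted p up to 0.14).

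Of 25 interferon-stimulated genes, 6 were higher in DN cells, among them Oas3 (3.65 ± 1.04 against 23.6 ± 2.27 CPM, -2.69 ± 0.31, adjusted p = 4.0e-06), Zbp1 (43.4 ± 6.27 against 91.8 ± 2.76 CPM, -1.08 ± 0.18, adjusted p = 4.8e-04), Ifi27l2a and Ifit3 (adjusted p = 0.013 and 0.015), and 1 in CCR6 cells, Bst2 (403 ± 56.1 against 112 ± 13.1 CPM, 1.85 ± 0.20, adjusted p = 2.0e-06). The 7 called became 3 without WT CCR6 replicate 2 and 4 without WT CCR6 replicate 3 or WT DN replicate 1. The call for Ifi27l2a ended without WT CCR6 replicate 2 or WT DN replicate 1 (adjusted p up to 0.091) and that for Ifit3 without WT CCR6 replicate 2 or 3 or WT DN replicate 1 (adjusted p up to 0.1). Of 25 ribosomal protein genes, 17 were higher in DN cells and 1, Rpl10, in CCR6 cells, with a median of -0.52. Rplp0 was 1256 ± 162 against 2051 ± 56.8 CPM (-0.71 ± 0.14, adjusted p = 0.0022). The 18 called became 7 without WT CCR6 replicate 3, 11 without WT DN replicate 1 and 9 without WT DN replicate 2. The call for Rpl10 ended without WT CCR6 replicate 1 or 2 or WT DN replicate 1, 2 or 3 (adjusted p up to 0.23). The depth of the libraries moved with the same groups, and its part in this result was not tested.

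Of 19 clock genes, 2 were higher in CCR6 cells, among them the activator Arntl (78 ± 15.4 against 39.9 ± 3.01 CPM, 0.97 ± 0.28, adjusted p = 0.041). The call for Arntl ended without WT CCR6 replicate 2 or 3 or WT DN replicate 1, 2 or 3 (adjusted p up to 0.18). Beside shares of 1.95% higher and 3.89% lower in CCR6 cells over all genes tested, the 20 glycolysis genes held 1 higher and 2 lower. None of 24 oxidative phosphorylation genes was called. Without WT ILC1 replicate 2 in the fit the counts were 2 and 5, and 1 and 1. Without WT CCR6 replicate 1, 1 oxidative phosphorylation gene was called, lower in CCR6 cells. Ldhb, a lactate dehydrogenase subunit, was the glycolysis gene higher in CCR6 cells (301 ± 46 against 79.8 ± 10.6 CPM, 1.92 ± 0.33, adjusted p = 6.6e-04), and the lactate carrier Slc16a3 and the glucose carrier Slc2a1 were higher in DN cells (2.91 ± 0.468 against 10.1 ± 1.7 CPM and 34.5 ± 1.98 against 53.7 ± 7.68 CPM, adjusted p = 9.1e-05 and 0.029). Of 23 lipid genes, 2 were higher in CCR6 cells and 1 in DN cells. The lipase Lpl (0.869 ± 0.377 against 0.231 ± 0.113 CPM) and the triglyceride enzyme Dgat1 (379 ± 50.4 against 153 ± 51.1 CPM) were those higher in CCR6 cells (adjusted p = 0.031 and 0.0014). Of 17 cholesterol synthesis genes, 1 was higher in DN cells and none in CCR6 cells. Of 24 proliferation genes, 3 were higher in DN cells, Hmgb2, Rrm2 and Cdk1 (adjusted p = 0.0041, 0.015 and 0.049), or 1 without WT CCR6 replicate 1 or 2. The call for Slc2a1 ended without WT CCR6 replicate 1, 2 or 3 or WT DN replicate 1 or 2 (adjusted p up to 0.19), that for Lpl without WT CCR6 replicate 1 or 2 or WT DN replicate 1 or 2 (adjusted p up to 0.2) and that for Rrm2 without WT CCR6 replicate 1 or 2 or WT DN replicate 1 (adjusted p up to 0.1). The call for Cdk1 ended without any 1 of the 6 libraries (adjusted p up to 0.26). In the fit without WT ILC1 replicate 2, 5 lipid and 3 cholesterol synthesis genes were called.

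**Figure D3:**
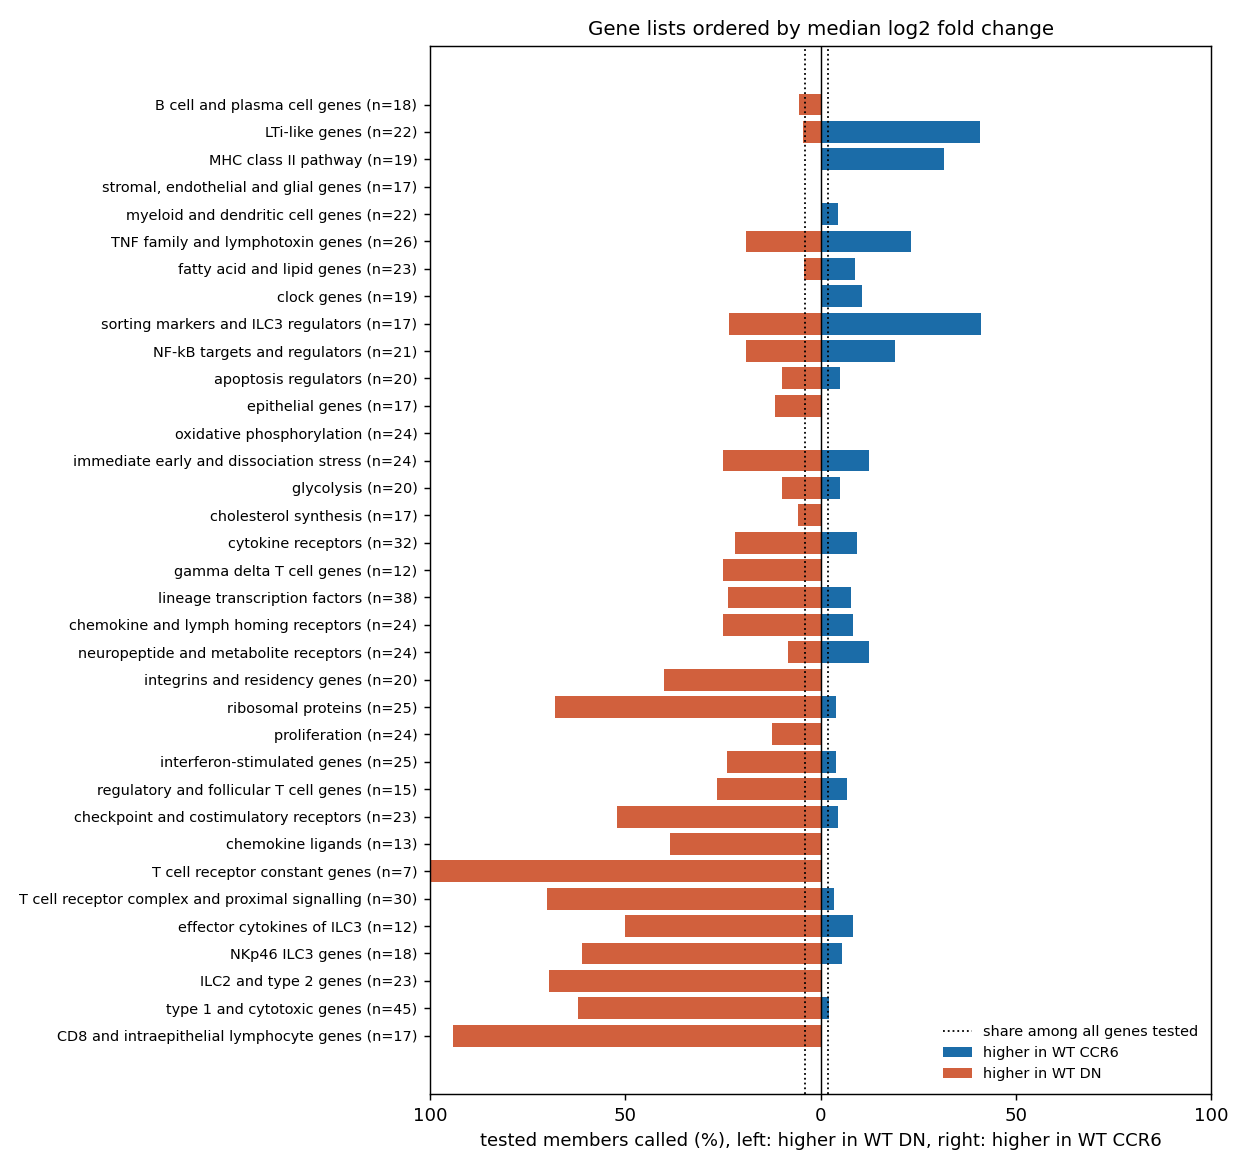
Share of tested members of the gene lists called between WT CCR6 and WT DN cells. The mast cell and basophil, red cell and platelet, and sex-linked lists had few tested members and are not drawn. The x axis is the percent of tested members, to the right for genes higher in CCR6 cells and to the left for genes higher in DN cells, and dotted lines mark the shares among all 21286 genes (1.95% and 3.89%). LTi-like and MHC class II genes reach furthest to the right together with the sorting markers, and the T cell receptor constant genes and CD8 and intraepithelial lymphocyte genes reach furthest to the left.

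Markers of other cells were mostly low. Of 18 tested B cell and plasma cell genes 1 was called, Ighm (30.1 ± 4.22 against 202 ± 16 CPM, -2.75 ± 0.20, adjusted p = 7.2e-09), higher in DN cells. Without WT ILC1 replicate 2 in the fit 1 more was called, higher in CCR6 cells. The immunoglobulin genes Igkc and Igha varied within groups, with Igkc at 14.5, 77.6 and 492 CPM in CCR6 cells and 18.5, 37.4 and 60.5 CPM in DN cells. The summed B cell list ran from 480 to 1484 CPM in the CCR6 libraries and from 625 to 769.7 CPM in the DN libraries. Its median log2 difference was 1.15, toward CCR6 cells, though none of its genes was called higher there. In libraries labelled DKO this median was -0.60. Of 22 myeloid and dendritic cell genes 1 was called, Flt3, with 2.26 ± 1.15 CPM in CCR6 cells and 1 count in the DN libraries, and the list summed to 419 to 458 CPM and 329 to 382 CPM, most of it from the widely expressed Cst3 at 337 ± 37.9 and 297 ± 21.3 CPM. The call for Flt3 ended without WT CCR6 replicate 1 or 3 or WT DN replicate 1, 2 or 3 (adjusted p up to 0.13). In the fit without WT ILC1 replicate 2, 2 myeloid genes were called. Siglech was at 0 in all 6 libraries, and Clec9a and Mrc1 did not exceed 0.422 CPM in any of them. Myeloid and B cell markers are given beside the class II result because such cells carry class II, and their part in it was not tested. Of 17 epithelial genes 2 were called, both higher in DN cells. They were Epcam (0.0157 ± 0.0272 against 0.693 ± 0.207 CPM, -5.10 ± 1.34, adjusted p = 0.023) and Cdh1, the cadherin that CD103 binds, with 1 count in the CCR6 libraries and 15.6 ± 2.05 CPM in DN cells (adjusted p = 1.8e-09). The call for Epcam ended without WT CCR6 replicate 1 or 3 or WT DN replicate 2 (adjusted p up to 0.13). None of 4 mast cell genes and none of 17 stromal, endothelial and glial genes was called, and 1 of each list was called without WT ILC1 replicate 2 in the fit. The haemoglobin gene Hba-a1 read 0.019, 0 and 0.0512 CPM in the CCR6 libraries and 4.2, 4.44 and 4.57 CPM in the DN libraries (-7.39 ± 1.72, adjusted p = 0.01). The call for Hba-a1 ended without WT CCR6 replicate 1 or 2 (adjusted p up to 0.068).

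Genes were also ranked by size among those called, without overlap between the groups and with a mean of at least 5 CPM. Those higher in CCR6 cells held several that no list covers. Eya1, a phosphatase and transcriptional coactivator, had 6.0 ± 0.982 CPM in CCR6 cells and no count in DN cells, at least 246-fold higher. Adra1b, an α1 adrenergic receptor, had 5.07 ± 1.11 CPM and no count in DN cells, at least 215-fold higher. Siglecg, an inhibitory sialic acid receptor, had 5.66 ± 0.704 CPM and 3 counts in DN cells. Tmem150c, Timp3 (a metalloproteinase inhibitor) and Ip6k3 (an inositol phosphate kinase) gave 16.7 ± 5.31 against 0.169 ± 0.182 CPM, 8.02 ± 2.72 against 0.10 ± 0.0922 CPM and 20.7 ± 4.8 against 0.488 ± 0.531 CPM. Their log2 differences were 6.62 ± 1.40, 6.33 ± 1.30 and 5.39 ± 1.39 (adjusted p = 0.0054, 0.004 and 0.026). Ttn, the giant muscle protein titin, read 87.7, 96.8 and 88.4 CPM in the CCR6 libraries and 1.8, 7.19 and 2.14 CPM in the DN libraries (4.62 ± 0.49, adjusted p = 1.3e-06). Parvb, an adaptor of integrins, gave 27.1 ± 1.68 against 1.14 ± 0.717 CPM (4.56 ± 0.94, adjusted p = 0.0035), and Pdgfa, a growth factor, gave 8.12 ± 1.02 against 0.273 ± 0.311 CPM (4.86 ± 1.13, adjusted p = 0.0099). Kalrn, an exchange factor of small GTPases, gave 9.06 ± 2.48 against 0.537 ± 0.41 CPM (4.07 ± 0.74, adjusted p = 9.8e-04). Ndnf, a secreted factor first described in neurons, gave 11.1 ± 2.25 against 0.559 ± 0.366 CPM (4.30 ± 1.25, adjusted p = 0.042), and Unc5c, a netrin receptor, gave 7.82 ± 0.125 against 0.325 ± 0.244 CPM (4.58 ± 1.04, adjusted p = 0.0083). Ephx2, the soluble epoxide hydrolase, gave 6.26 ± 2.65 against 0.139 ± 0.22 CPM (5.46 ± 1.34, adjusted p = 0.014). For each of these genes every CCR6 library was above every DN library, which the ranking required. The call for Ip6k3 ended without WT CCR6 replicate 2 or 3 or WT DN replicate 1 or 3 (adjusted p up to 0.12), that for Pdgfa without WT DN replicate 2 (adjusted p up to 0.063) and that for Ndnf without any 1 of the 6 libraries (adjusted p up to 0.19). The call for Unc5c ended without WT DN replicate 2 (adjusted p up to 0.052) and that for Ephx2 without WT CCR6 replicate 3 or WT DN replicate 1 or 3 (adjusted p up to 0.074).

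Abundant genes changed by smaller factors. Sdc4, a heparan sulfate proteoglycan, read 3952, 4283 and 3547 CPM in the CCR6 libraries and 1607, 1598 and 1487 CPM in the DN libraries (1.33 ± 0.13, adjusted p = 4.8e-07), and Cd82, a tetraspanin, read 4599, 4494 and 3954 CPM in the CCR6 libraries and 2209, 2089.7 and 2279.7 CPM in the DN libraries (0.99 ± 0.17, adjusted p = 7.5e-04). Ncoa7, Dhrs3 (a retinal reductase) and Stom gave 1725 ± 179 against 617 ± 25.1 CPM, 1182 ± 138 against 443 ± 41.3 CPM and 1093 ± 102 against 379 ± 43.7 CPM. Their log2 differences were 1.48 ± 0.17, 1.42 ± 0.18 and 1.53 ± 0.18 (adjusted p = 5.0e-06, 1.6e-05 and 4.1e-06). Tmem176a and Tmem176b, neighbouring genes of ion channel proteins, gave 2200.4 ± 211 against 1303 ± 100.0 CPM and 2542 ± 102 against 1795 ± 172 CPM (adjusted p = 1.6e-04 and 0.0089). Among the genes ranked by p-value, Cdc14a, a phosphatase, gave 209 ± 16.4 against 33 ± 2.74 CPM (2.66 ± 0.20, adjusted p = 5.8e-09), and Slc41a3, a magnesium transporter, gave 313 ± 53.6 against 68.1 ± 6.03 CPM (2.20 ± 0.21, adjusted p = 3.3e-07). Slc6a13, a GABA transporter, Gdpd5, a phosphodiesterase, and Ifi204, an interferon-inducible gene, gave 328 ± 33.7 against 127 ± 15.5 CPM, 254 ± 16.8 against 81.1 ± 5.92 CPM and 20.7 ± 0.402 against 3.38 ± 0.411 CPM (adjusted p = 2.0e-07, 1.1e-07 and 1.1e-06). The 2 groups did not overlap for any of these genes, which the ranking by CPM difference required but the ranking by p-value did not. On the DN side, Tmsb4x and Pfn1, which bind actin, gave 3587 ± 640.3 against 7575 ± 585 CPM and 1489.9 ± 275 against 2389 ± 270.0 CPM (-1.08 ± 0.14, adjusted p = 1.5e-05 and -0.68 ± 0.15, adjusted p = 0.0048). Gimap4, a lymphocyte GTPase, read 273, 317 and 271 CPM in the CCR6 libraries and 1158, 1202 and 1562 CPM in the DN libraries (-2.19 ± 0.20, adjusted p = 1.6e-07). Ccnd2, a cyclin, gave 229 ± 9.15 against 831 ± 131 CPM (-1.86 ± 0.12, adjusted p = 7.5e-10), and Socs2, a suppressor of cytokine signalling, gave 19.7 ± 2.05 against 155 ± 20.0 CPM (-2.98 ± 0.18, adjusted p = 6.0e-10). Rgs1, a regulator of G protein signalling, Btg1, an antiproliferative factor, and Klf6, a transcription factor, gave 1733 ± 76.2 against 3203 ± 672 CPM, 1483 ± 262 against 2606 ± 39.9 CPM and 1491 ± 253 against 2557 ± 245 CPM (adjusted p = 0.0045, 0.0024 and 0.0063). Gimap3, whose reads may be shared with other members of its family, gave 891 ± 70.1 against 1954 ± 341 CPM, and Cdk14, a kinase, gave 0.611 ± 0.0365 against 7.4 ± 1.51 CPM (adjusted p = 1.8e-04 and 2.3e-09). Gramd3 gave 0.114 ± 0.107 against 37.5 ± 11.6 CPM (-8.25 ± 1.10, adjusted p = 2.7e-05), and Samd3 had 2 counts in the CCR6 libraries and 9.43 ± 2.11 CPM in DN cells. Scel and Lrrc52 had no count in the CCR6 libraries, and Scel was at least 419-fold higher in DN cells and Lrrc52 at least 366-fold higher. The call for Scel ended without WT CCR6 replicate 1, 2 or 3 or WT DN replicate 2 (adjusted p up to 0.076), that for Klf6 without WT CCR6 replicate 3 (adjusted p up to 0.066) and that for Tmem176b without WT DN replicate 1 or 2 (adjusted p up to 0.094). Slfn1 gave 0.0297 ± 0.0266 against 20.3 ± 4.31 CPM (-9.34 ± 1.52, adjusted p = 3.1e-04).

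The levels of some of these genes in the other WT populations are given here for comparison. Ccr6 at 7.54 and 4.08 CPM, Cd4 at 14.2 and 27.1 CPM and Vipr2 at 2.86 and 2.14 CPM in NKp46 and ILC1 cells were lower there than in DN cells. Ctsw, Cxcr3 and Ncr1 were higher in both of these populations than in DN cells. Cd3e was 12.9 ± 2.52 CPM in NKp46 cells and 76 ± 27.4 CPM in ILC1, near or under the CCR6 level. Other T cell receptor transcripts did not follow Cd3e. Variable segments summed to 66.9, 67.1 and 64.9 CPM in NKp46 libraries, near the CCR6 level. In ILC1 libraries they summed to 243, 116 and 209 CPM, between the CCR6 and DN libraries. All T cell receptor genes summed to 2008, 2080 and 2186 CPM in NKp46 libraries and to 2583, 1693 and 2405 CPM in ILC1 libraries. These sums too lay above each CCR6 library and below each DN library. Cd6, Cd8b1, Il17rb, Il9r and Rxrg had means of at most 2.03, 0.559, 8.44, 0.714 and 1.41 CPM in NKp46 cells and ILC1, so DN cells held the highest level of each among the 4 WT populations. These are levels, and no test was made between more than 2 populations.

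**Figure D4:**
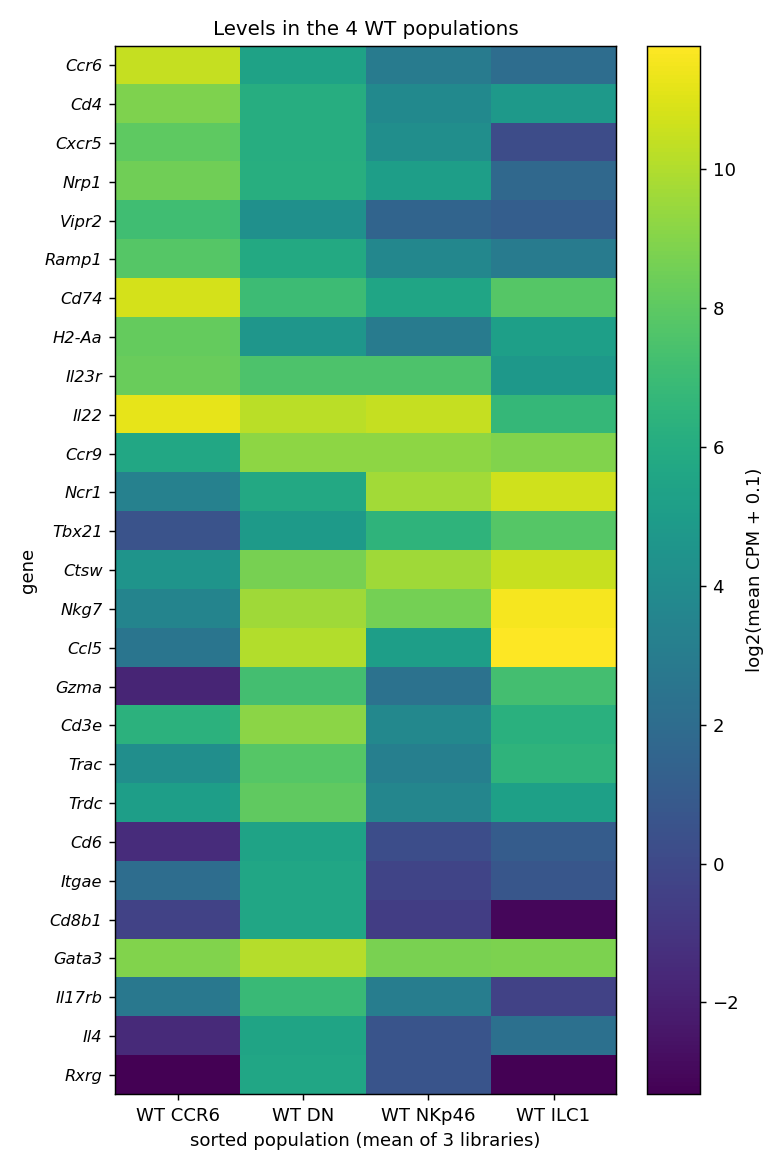
Mean levels of 27 named genes in the 4 WT populations. Colour is log2 of the mean CPM of 3 libraries plus 0.1. The 10 uppermost genes, from Ccr6 to Il22, are brightest in CCR6 cells, cytotoxic genes such as Nkg7 and Ccl5 are bright in DN cells and brightest in ILC1, and Gata3, Il4 and Rxrg are brightest in DN cells.

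Whole-gene counts of both floxed genes stood above the WT level in the libraries with the DKO label. Nr1d1 read 1560.1, 1482 and 1459 CPM in the CCR6 libraries and 1485, 1772 and 1705 CPM in the DN libraries labelled DKO, against 539.6, 585 and 599 CPM and 386, 399 and 489 CPM in those labelled WT. Nr1d2 read 72.2, 115 and 142 CPM and 121, 83.5 and 68.7 CPM in the libraries labelled DKO and 35.9, 37.6 and 39.4 CPM and 44.4, 27 and 22 CPM in those labelled WT. Each library labelled DKO was thus above each library labelled WT of both populations for both genes, where a deletion that removed the whole transcript would lower them. Which exons are floxed is not given in the sources used here, and counts per gene cannot show the loss of single exons, so the genotype could not be checked from these counts. WT and DKO are therefore used as labels of libraries, and each direction between genotypes below rests on those labels.

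In the libraries labelled DKO the same pair of populations differed in 380 genes (1.79%), 92 higher in CCR6 cells (0.432%) and 288 higher in DN cells (1.35%). With only the groups compared in the fit these were 286 and 433, and with limma voom 250 and 393. Fewer were called without DKO CCR6 replicate 1 (228), DKO CCR6 replicate 2 (230), DKO DN replicate 1 (249) or DKO DN replicate 3 (225). The WT and DKO comparisons share no libraries, but both come from 1 fit with a shared estimate of spread. The share with the same sign over all genes tested is not given here. Of the 415 genes higher in WT CCR6 cells, 385 had the same sign in libraries labelled DKO and 71 were called there. Of the 828 higher in WT DN cells, 765 had the same sign and 231 were called. The class II genes were higher in DKO CCR6 cells too, with Cd74 at 767 ± 114 against 88.5 ± 19.4 CPM (3.11 ± 0.23, adjusted p = 1.5e-08) and H2-Aa at 215 ± 17.7 against 33.4 ± 9.02 CPM (2.68 ± 0.24, adjusted p = 2.7e-07). The cytotoxic genes Ccl5 and Gzmb were again higher in DN cells, Ccl5 at 2.28 ± 1.46 against 554 ± 64.6 CPM (-7.91 ± 0.40, adjusted p = 3.6e-11) and Gzmb at 2.26 ± 1.76 against 105 ± 20.2 CPM (-5.55 ± 0.64, adjusted p = 1.0e-05). Of the T cell receptor complex, Cd3e was 84.3 ± 10.9 against 181 ± 28.9 CPM in libraries labelled DKO and was not called (-1.10 ± 0.31, adjusted p = 0.092), and Trac was 14.6 ± 4.23 against 74 ± 18.5 CPM (-2.34 ± 0.31, adjusted p = 6.0e-05). Variable segments summed to 55.4, 57.9 and 58.5 CPM in DKO CCR6 cells and to 156, 114 and 139 CPM in DKO DN cells, below each WT DN library. Of the 25 ribosomal protein genes, none was called in libraries labelled DKO. In the test of the difference between genotypes described below, none of these 25 genes was called, nor were Cd3e, Trac or Il17f. Il17f was 821 ± 97.9 against 649.8 ± 214 CPM in libraries labelled DKO and was not called there (adjusted p = 1).

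A test of the difference itself, the CCR6 against DN contrast in WT minus that in DKO, called 27 genes (0.127%), all of them also called in WT. For 19 the difference was negative (0.0893%) and for 8 it was positive (0.0376%). This split did not hold in other fits, with 80 negative and 86 positive with only the groups compared in the fit, 80 and 89 with DESeq2, 31 and 31 without a filter on low counts and 43 and 28 with limma voom. Leaving out any 1 of the 12 libraries of these groups left 7 to 25 genes, with 7 without DKO DN replicate 3, 9 without WT CCR6 replicate 2, 17 without WT CCR6 replicate 3 and 25 without WT CCR6 replicate 1, and 10 to 16 without each of the other 8. The count was 68 without WT ILC1 replicate 2 in the fit. Among the genes named here, Cd7, Socs2, Ccnd2, Trdv4, Tm9sf2 and Add3 kept the call without each of the 12 libraries (adjusted p at most 8.8e-05, 0.0021, 0.0021, 0.027, 0.042 and 0.016).

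The 6 genes of T cells described next were further apart in log2 difference between the populations in the libraries labelled WT than in those labelled DKO. They are described because that difference was called. It was called for 3 of 30 genes of the T cell receptor complex and its proximal signalling. Of the 7 constant genes it was called for 1, and of the 12 γδ T cell genes for 2. Trdv4 differed by -4.44 in WT and -1.13 in DKO, a difference of -3.31 ± 0.49, adjusted p = 0.004. Trdc differed by -2.93 in WT and -1.13 in DKO, a difference of -1.81 ± 0.35, adjusted p = 0.034. Cd27, a costimulatory receptor of T cells, differed by -6.23 in WT and -2.33 in DKO (-3.90 ± 0.73, adjusted p = 0.03). Bcl11b differed by -3.05 and -1.06 (-1.99 ± 0.39, adjusted p = 0.042). Art2b, an ADP-ribosyltransferase of T cells, differed by -5.05 and -1.45 (-3.59 ± 0.59, adjusted p = 0.013). Lat, the adaptor of T cell receptor signalling, changed sign, from -0.86 in WT to 0.37 in DKO (-1.23 ± 0.22, adjusted p = 0.025). The calls for Cd27 and Bcl11b ended without 10 of the 12 libraries taken one at a time, that for Trdc without 11, that for Lat without 9 and that for Art2b without 2 (adjusted p up to 0.13, 0.16, 0.16, 0.13 and 0.061).

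The homing receptors Ccr9 and Ccr2 also differed by less in libraries labelled DKO. Ccr9 was 75.8 ± 10.4 against 269 ± 57.9 CPM in libraries labelled DKO, and its log2 difference went from -3.52 in WT to -1.83 (-1.69 ± 0.30, adjusted p = 0.019). Ccr2 was 24 ± 3.62 against 67 ± 13 CPM in libraries labelled DKO and went from -2.87 to -1.48 (-1.39 ± 0.25, adjusted p = 0.025). Socs2 went from -2.98 to -0.95 (-2.03 ± 0.24, adjusted p = 2.2e-04) and Ccnd2 from -1.86 to -0.52 (-1.34 ± 0.16, adjusted p = 2.2e-04). Hes1, a target of Notch, went from -3.40 to -1.05 (-2.35 ± 0.40, adjusted p = 0.016), and Vsir from -1.71 to -0.60 (-1.11 ± 0.19, adjusted p = 0.019). The calls for Ccr9 and Vsir ended without 8 of the 12 libraries taken one at a time, that for Ccr2 without 10 and that for Hes1 without 3 (adjusted p up to 0.086, 0.088, 0.13 and 0.058).

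Cd7, a surface receptor of T and NK lymphocytes, was called in opposite directions. It read 404, 551 and 398 CPM in the CCR6 libraries and 209.8, 286 and 211 CPM in the DN libraries in libraries labelled WT, and 69.2, 56.7 and 69.3 CPM and 188, 207 and 199.9 CPM in the CCR6 and DN libraries labelled DKO, without overlap in either genotype, a difference of 2.54 ± 0.23, adjusted p = 4.9e-06. Add3, a protein of the membrane skeleton named here after its values were seen, was the only other gene called in opposite directions (-0.98 in WT and 0.91 in DKO, -1.88 ± 0.27, adjusted p = 0.0033). Tm9sf2, a transmembrane protein of the endosomal system, went from 2.23 in WT to 0.78 in DKO (1.45 ± 0.23, adjusted p = 0.0098). Ifi204 went from 2.61 to 0.54 (2.07 ± 0.37, adjusted p = 0.02). St3gal6, a sialyltransferase, went from -1.23 to -2.58 (1.35 ± 0.27, adjusted p = 0.041), and Chad, the matrix protein chondroadherin, from 0.85 to -0.26 (1.11 ± 0.21, adjusted p = 0.034). Klrb1b, an inhibitory lectin receptor, was 0.83 in WT and 0.13 in DKO (0.70 ± 0.13, adjusted p = 0.031). The calls for Ifi204, St3gal6, Chad and Klrb1b ended without 8, 10, 10 and 10 of the 12 libraries taken one at a time (adjusted p up to 0.088, 0.23, 0.17 and 0.17).

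**Figure D5:**
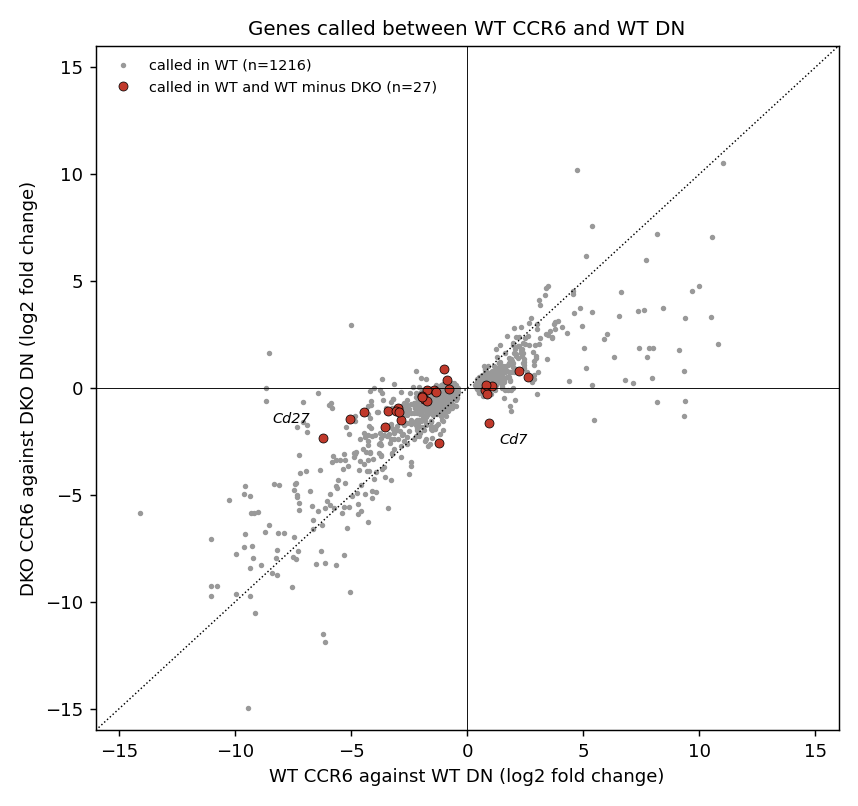
Log2 difference between CCR6 and DN cells in libraries labelled WT (x axis) and DKO (y axis) for the 1243 genes called in WT, with the 27 genes whose difference between genotypes was called in red. The dotted line marks equal values, Cd27 lies above it with a smaller gap in libraries labelled DKO, and Cd7 lies in the quadrant of opposite signs. Values of genes without counts in a group depend on the prior count of the fit.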

How the data were processed

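RNA from 24 sorted cell samples, 8 groups of 3, was sequenced on a NovaSeq after SMARTer Ultra Low amplification, which used 12 to 15 PCR cycles on 10 ng of RNA, per the labels' protocols. The authors deposited 1 table of whole-number gene counts for all 24 libraries, and per the submitters' processing notes STAR 2.7.9a, featureCounts 2.0.3, Salmon 1.5.2, DESeq2 and the mm10 build were used, with roles, strand setting and treatment of multimapping reads not given in the sources used here. Reads of a gene and an overlapping or antisense neighbour, or of near-identical copies, may therefore be shared. Of 55774 rows, 168 IDs stood on several identical rows and were kept once. Counts were fitted with edgeR 4.0.16 (R 4.3.3): TMM scaling, filterByExpr, 1 mean per group, robust quasi-likelihood fit with 16 residual degrees of freedom, Benjamini-Hochberg adjustment over 21286 genes. The script was tested on simulated data. Depth per library is given above, and more counts give smaller counting error. Coordinates are from GENCODE M21 on GRCm38, and promoters from RefSeq on GRCm38.p6.

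Genes named are list members (those called among the 6 with the smallest p of each list, and all sorting markers), up to 15 each way with the largest log2 difference among called genes without overlap and a mean of at least 5 CPM, up to 10 each way by CPM difference and by p, and up to 5 each way by the difference between genotypes, with predicted, antigen receptor and sex-linked genes left out of the ranked sets. Add3 is outside this rule. Some genes that it takes are not reported here. Members and the 38 gene lists were chosen with earlier results of these data known. Alternatives were size factors, low-count filters, DESeq2 1.42.0, limma voom 3.58.1, only the groups compared, a replicate block and each library left out. No set test was run.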

Additional observations from a re-analysis of the deposited data

Results flagged for a closer look

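For 19 of the genes named above, the difference between CCR6 and DN cells was not the same in libraries labelled WT and DKO by the test of the difference itself, edgeR's quasi-likelihood test on WT minus DKO with adjustment over all genes. The fitted difference was negative, that is, further toward DN cells in libraries labelled WT, for Cd27 (-3.90), Art2b (-3.59), Trdv4 (-3.31), Hes1 (-2.35), Socs2 (-2.03), Bcl11b (-1.99), Add3 (-1.88), Trdc (-1.81), Ccr9 (-1.69), Ccr2 (-1.39), Ccnd2 (-1.34), Lat (-1.23) and Vsir (-1.11). It was positive for Cd7 (2.54), Ifi204 (2.07), Tm9sf2 (1.45), St3gal6 (1.35), Chad (1.11) and Klrb1b (0.70). Each direction rests on the genotype labels, which could not be checked from counts per gene. All values are log2 differences, and 6 of the 19 genes kept the call without each of the 12 libraries. The groups held 3 libraries each, too few for a test of single libraries that stand apart.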

How the results depend on the processing

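Of the 199 genes named as called, all kept their direction in every alternative that gave a value, and 163 kept the call without each of the 6 WT libraries. Some genes named as not called were called in other fits. These were 8 of 30 with only the groups compared in the fit, 8 of 31 with limma voom and 3 of 31 with DESeq2. The WT count of 1243 became 2212 with only the groups compared in the fit, 1942 with DESeq2, 2423 with limma voom, and 736 to 998 with 1 library left out. The DKO count of 380 became 719, 633, 643 and 225 to 286 under the same alternatives. The count for WT minus DKO, 27, became 166, 169, 71 and 7 to 25, and 62 without a filter on low counts. Without WT ILC1 replicate 2, an alternative chosen after seeing the data, the 3 counts were 1803, 516 and 68. The 200 calls over all gene lists became 157 to 186 with 1 library left out.

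Replicate numbers are shared by the groups. Deviations of WT CCR6 and DN libraries with the same number correlated at 0.043, 0.038 and 0.038, and those with different numbers at -0.029 to -0.009. For DKO libraries the values were 0.006, 0.017 and 0.041 with the same number and -0.031 to 0.013 with different numbers. All these values were small, but each WT pair with the same number was above each WT pair with different numbers. A pairing by number is therefore not excluded. The labels do not say what a number marks, and the main fit does not pair the libraries. With the replicate block, 1359 genes were called in WT, 394 in DKO and 39 for their difference. With the replicate block and only the groups compared in the fit, chosen after seeing the data, the counts were 1986, 658 and 132.

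Genes that were not called in WT changed sign in 4 cases. Cd86 was 0.02 with median-of-ratios size factors and with DESeq2, 0.03 without a filter, 0.89 with limma voom, 0.07 with the replicate block and 0.59 with the block and only the groups compared, against -0.02 as reported. With 1 library left out, Cd86 ran from -0.58 to 0.43, Id2 from -0.03 to 0.16, Il2rb from -0.32 to 0.01 and Rfx5 from -0.31 to 0.07. Genes of a few counts per library are limited by depth, and the cause of the other changes was not tested.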
